A study of Mus musculus with 3 samples.

Results

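The genes examined here are 10 secreted or membrane-bound matrix proteases and tissue inhibitors, namely Adamts1, Adamts4, Adamts5, Mmp2, Mmp3, Mmp11, Mmp13, Mmp14, Timp1 and Timp3, among 18193 genes that could be named on the array. They were taken by symbol. Each probe set for which the platform annotation lists a member, and no other gene, was read, which gave 20 of the 45101 probe sets. RNA was prepared from PDL-L2 cells, an immortalised fibroblastic line from mouse periodontal ligament, and hybridised to 3 Affymetrix mouse arrays, 1 for each condition. The siCont vehicle cells received a pool of non-target siRNA, then vehicle. The siCont BMP-2 cells received the same pool and then rhBMP-2 at 250 ng/ml. The siENG BMP-2 cells received an siRNA pool against endoglin and the same dose of rhBMP-2. Transfection preceded exposure by 48 h in all cells, exposure lasted 12 h, and the labels place rhBMP-2 in a differentiation medium with ascorbic acid and beta-glycerophosphate. All 3 arrays come from 1 cell line and no siENG array with vehicle was used here, so the knockdown was seen only in the presence of rhBMP-2. As no condition has a second array, differences between conditions are descriptions without a p-value and cannot be told apart from differences between cultures.

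Matrix metalloproteinases and the ADAMTS proteases are zinc enzymes that are made as inactive proenzymes and cut collagens, proteoglycans and other components of the extracellular matrix once their prodomain is removed. The tissue inhibitors of metalloproteinases (TIMPs) bind the active site of these enzymes and block it. The periodontal ligament is known for rapid collagen turnover, in which fibroblasts both make and degrade matrix, and proteases of this family also take part in the remodelling that accompanies tooth movement and periodontitis.

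The brightest probe set stood for a gene, which was kept in a comparison where the higher of the 2 signals reached 23, the median signal of all probe sets over the 3 arrays. The spread given beside a log2 ratio is the robust SD of log2 ratios among all probe sets of similar signal in the same comparison, and it describes scatter between probe sets, not between cultures. Endoglin, the target of the siRNA, read 286.3 in vehicle cells, 298.5 after BMP-2 and 108.2 after siENG plus BMP-2 in its brighter probe set, and its other probe set ran in parallel. The siENG array was brighter as a whole, with a median log2 ratio of 0.21 to siCont BMP-2 over the probe sets kept and of 0.22 to vehicle, so ratios of siENG to siCont are given as deposited and, as the relative value, less this median. Between both siCont arrays the median was 0.01. Of 11 ligament fibroblast markers on the array 7 reached a signal of 23, including Col1a1, Col1a2, Col3a1 and Postn, whereas Thy1, Dcn, Aspn and Tnmd did not. In these bulk RNA samples fewer cells of a type and less RNA per cell cannot be told apart.

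**Figure D1:**
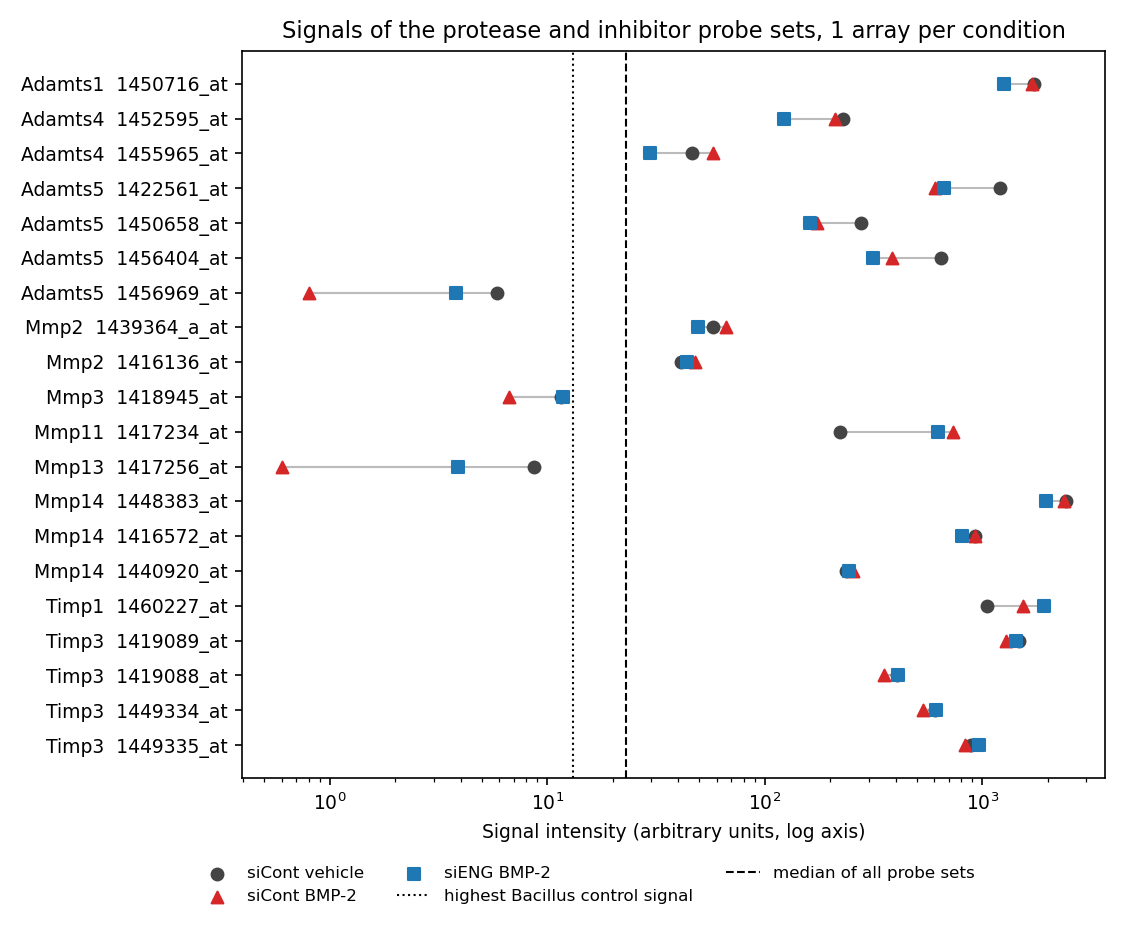
Signal intensity (arbitrary units, log axis) of the 20 probe sets of the 10 genes, with 1 point for each array; grey lines join the points of a probe set, the dotted line marks the highest Bacillus control signal of 13.1 and the dashed line the median of all probe sets, 23. Mmp11 lies to the right of vehicle on both BMP-2 arrays, the 3 brighter Adamts5 probe sets lie to the left of it, and Mmp3 and Mmp13 stay to the left of the dotted line.

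Of the 10 genes, 8 were kept in each of the 3 comparisons. The stromelysin Mmp3 and the collagenase Mmp13 were not. Mmp3, which degrades proteoglycans and fibronectin and can activate other proenzymes, gave 11.5 in vehicle cells, 6.7 after BMP-2 and 11.8 after siENG plus BMP-2. Mmp13, which cleaves fibrillar collagen, had 8.7, 0.6 and 3.9 in the same order of arrays. Control probe sets for Bacillus genes, with a median signal of 2, are used here as a guide to background. This assumes that no Bacillus RNA was added to the samples. Every signal of Mmp3 and Mmp13 lay below 13.1, the highest of any such probe set. No ratio is therefore given for either gene, and neither could be told from background on any array.

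To see how BMP-2 affected these genes without endoglin knockdown, siCont BMP-2 was compared with siCont vehicle. A ratio of 2 or more was found for 1 of the 8 genes kept, Mmp11, where 1.8% of all 10810 genes kept reached it. A ratio of 0.5 or less was found for 1 gene, Adamts5, where 1.57% of all genes did. The remaining 6 lay between these limits, and the median log2 ratio of the 8 was -0.03, against 0.01 for all genes kept.

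Adamts5, the main aggrecan-cleaving protease of mouse cartilage, was read by 4 probe sets. The brightest gave 1209.8 in vehicle cells, 603.8 after BMP-2 and 663.7 after siENG plus BMP-2. Its ratio of BMP-2 to vehicle, 0.499, lay just inside the limit, at a robust SD of 0.15 in log2 units. The next probe set read 643.2, 384.9 and 314.9 (log2 ratio -0.74), and a dimmer one 276.7, 174.7 and 161.4 (log2 ratio -0.66). All 3 probe sets were thus lower on both BMP-2 arrays than on the vehicle array, by more than the robust SD, but only the brightest reached 0.5, and the others had ratios of 0.598 and 0.631. The last probe set read 5.9, 0.8 and 3.8, within the range of the Bacillus controls. When these 3 probe sets were averaged the log2 ratio was -0.80, short of the limit. Of the 3 probe sets past the signal limit, the brightest lay farthest from vehicle. By this probe set Adamts5 was at rank 169 from the lowest of all 10810 genes kept, and at rank 5 among the 6723 whose brighter signal was at or above the 75th percentile, 152.0.

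In the other aggrecanases no such difference was seen. Adamts1, a versican- and aggrecan-cleaving protease, read 1734.5 without and 1686.0 with BMP-2. Its log2 ratio was -0.04, within the robust SD of 0.11. Adamts1 and Adamts5 are direct neighbours among the protein-coding genes of chromosome 16 in the RefSeq annotation of GRCm38.p6 with 0 such genes between them, and their ratios of BMP-2 to vehicle were 0.972 and 0.499. Adamts4, an inducible aggrecanase, had 229.8 and 209.5 in its brighter probe set (log2 ratio -0.13, robust SD 0.19) and 46.1 and 57.9 in the other (log2 ratio 0.33, robust SD 0.34). Its probe sets therefore differed in direction, each within its robust SD.

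Mmp11 (stromelysin-3), a stromal metalloproteinase that is activated inside the cell by furin and is known from tissue remodelling and the stroma of carcinomas, was read by 1 probe set. It read 221.6 in vehicle cells, 736.6 after BMP-2 and 627.7 after siENG plus BMP-2. BMP-2 over vehicle gave a ratio of 3.32 and a log2 ratio of 1.73, where the robust SD was 0.17. Of the 6723 genes at or above the 75th percentile of signal, Mmp11 was at rank 5 from the highest, and over all genes kept at rank 48. Both arrays with BMP-2 were well above the vehicle array.

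The other metalloproteinases kept had small ratios. Mmp14 (MT1-MMP), a membrane-bound collagenase that also activates proMMP-2, read 2416.1 without and 2377.9 with BMP-2 in its brightest probe set, a log2 ratio of -0.02 with a robust SD of 0.11. Its other probe sets had 928.0 and 931.1, and 237.4 and 254.3, with log2 ratios of 0.00 and 0.10. Mmp2 (gelatinase A), which cleaves denatured collagen, read 57.9 and 66.3 in its brighter probe set and 41.3 and 47.7 in the other. The log2 ratios of 0.20 and 0.21 were both within the robust SD of 0.34. In each of these probe sets the siCont arrays with and without BMP-2 differed by less than the robust SD.

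Timp1, a secreted inhibitor of most soluble metalloproteinases, was read by 1 probe set, which gave 1055.3 in vehicle cells, 1532.2 after BMP-2 and 1919.5 after siENG plus BMP-2. BMP-2 over vehicle gave a ratio of 1.45 and a log2 ratio of 0.54, beyond the robust SD of 0.11 but below a ratio of 2. Timp1 was at rank 606 from the highest of all genes kept, and at rank 172 of the 6723 at or above the 75th percentile. Timp3, the matrix-bound inhibitor that also blocks ADAMTS proteases and Adam17, had 4 probe sets. The brightest read 1471.0, 1283.2 and 1435.9 on the arrays in the same order, the next 890.6, 829.5 and 961.6, the next 607.1, 533.8 and 612.1, and the dimmest 406.0, 352.0 and 409.1. In 4 of 4 probe sets the signal with siCont and BMP-2 was the lowest of the 3, with log2 ratios to vehicle from -0.21 to -0.10. These probe sets measure 1 transcript pool on the same arrays and are not replicates. With BMP-2 the pair of inhibitors thus differed in sign, Timp1 being higher and Timp3 slightly lower.

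**Figure D2:**
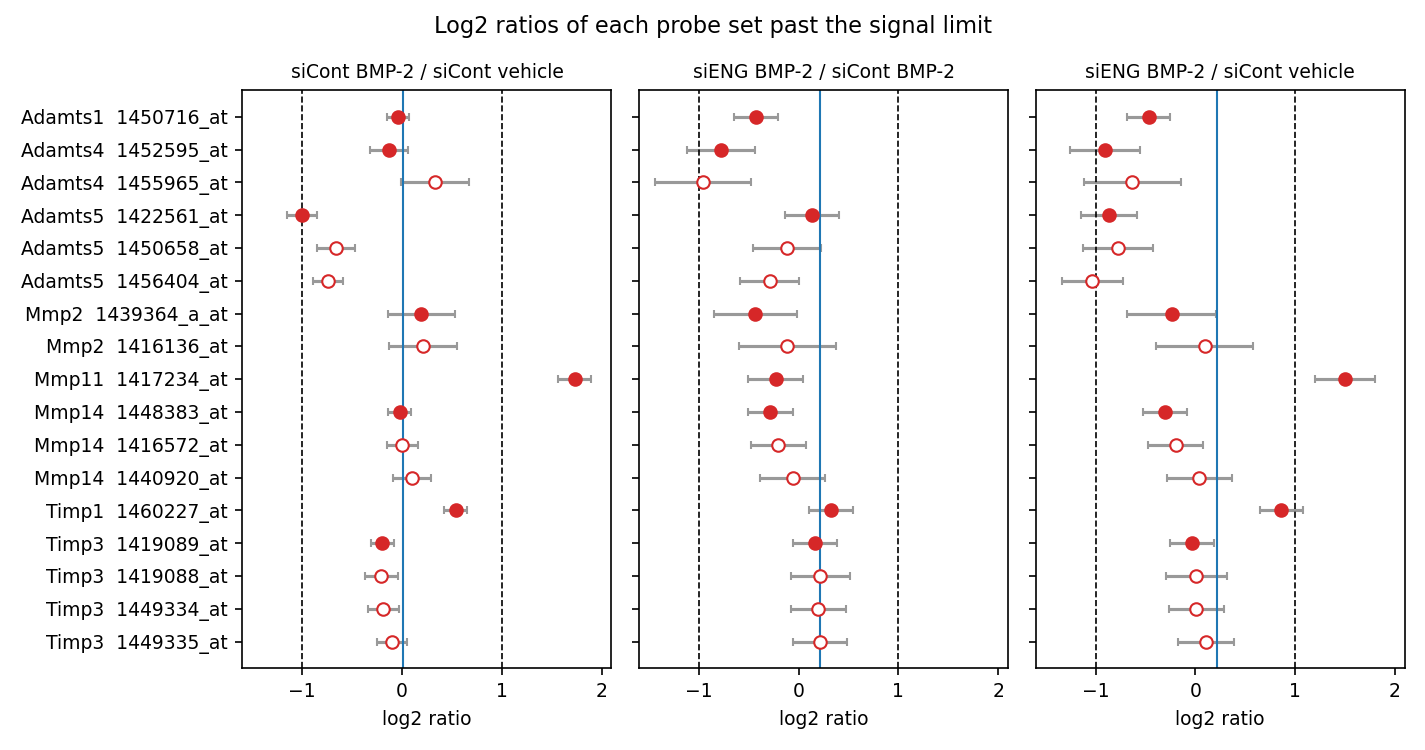
Log2 ratios of the 17 probe sets past the signal limit in the 3 comparisons. Filled points are the brightest probe set of a gene and open points the others, bars are the robust SD among probe sets of similar signal, dashed lines mark ratios of 2 and 0.5, and blue lines the median of all probe sets kept. In the left panel Mmp11 lies at 1.73 and the Adamts5 probe sets at ratios between 0.499 and 0.631, and in the middle panel the probe sets of Adamts4 lie farthest to the left.

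Promoter sequence is shown for the genes with a higher signal under BMP-2, Mmp11 and Timp1, and for the genes at background, Mmp3 and Mmp13, which are known for AP-1-driven promoters. RefSeq promoters (GRCm38.p6) matched 7 of the 10 genes, all but Adamts4, Adamts5 and Mmp2. The 250 bases before the start of each gene were searched on both strands for the Smad box GTCTAGAC, the GC-rich Smad site GGCGCC, the AP-1 site TGACTCA, whose other strand reads TGAGTCA, and the TATA box TATAAA, and no match in these genes overlapped another. The lines below give these bases 5′ to 3′ on the strand of the gene, with the matches in capitals, for Mmp11 (chr10:75932503-75932752, minus strand), Timp1 (chrX:20869916-20870165, plus strand), Mmp3 (chr9:7445572-7445821, plus strand) and Mmp13 (chr9:7272264-7272513, plus strand).
Mmp11: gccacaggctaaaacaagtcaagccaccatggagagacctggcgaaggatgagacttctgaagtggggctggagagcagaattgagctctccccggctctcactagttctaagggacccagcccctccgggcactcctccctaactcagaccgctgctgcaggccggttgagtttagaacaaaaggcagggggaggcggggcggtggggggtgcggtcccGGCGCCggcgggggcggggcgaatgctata
Timp1: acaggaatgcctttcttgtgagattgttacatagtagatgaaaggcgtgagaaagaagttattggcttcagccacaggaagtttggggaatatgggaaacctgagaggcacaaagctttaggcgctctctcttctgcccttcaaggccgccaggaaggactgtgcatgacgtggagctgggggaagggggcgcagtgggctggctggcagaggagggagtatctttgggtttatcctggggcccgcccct
Mmp3: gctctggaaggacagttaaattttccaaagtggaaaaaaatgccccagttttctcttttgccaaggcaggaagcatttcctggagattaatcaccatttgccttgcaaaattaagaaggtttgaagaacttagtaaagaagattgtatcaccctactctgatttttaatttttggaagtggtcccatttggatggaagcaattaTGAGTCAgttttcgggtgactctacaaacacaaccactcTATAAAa
Mmp13: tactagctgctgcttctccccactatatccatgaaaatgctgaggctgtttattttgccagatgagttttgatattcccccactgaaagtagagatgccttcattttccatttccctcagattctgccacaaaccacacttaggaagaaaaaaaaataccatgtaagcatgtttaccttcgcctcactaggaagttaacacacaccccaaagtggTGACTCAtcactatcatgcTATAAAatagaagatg
The GC-rich Smad site was found in 1 of the 7 promoters, that of Mmp11, where it begins 30 bases before the start. It was held by 9.59% of the 32851 promoters of the same length. Their median GC content was 52.4%, against 63.2% in the window of Mmp11. The Smad box was found in 0 of the 7 and in 0.167% of all. The AP-1 site was found in Mmp3 and Mmp13, at 46 and 35 bases before the start, and in 4.46% of all promoters. A TATA box was found in 3 of the 7, Mmp3, Mmp13 and Adamts1, at 7, 16 and 32 bases before the start, and in 12.4% of all. These distances are counted from the annotated start, which was not checked. Timp1 held none of the 4 in this window. A match is a run of letters only, and binding was not measured.

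The effect of endoglin knockdown in the presence of BMP-2 was read by comparing siENG BMP-2 with siCont BMP-2. The siCont BMP-2 array is shared with the comparison to vehicle, so a high reading on it raises the first ratio and lowers this one. The limit of 2 was passed by 0 of the 8, against 4.04% of all 10854 genes, and a ratio of 0.5 or less by 0, against 1.66%. Relative to the median of probe sets kept, 0 of 8 lay beyond either limit, against 2.32% and 2.7% of all genes. Their median log2 ratio was -0.26 as deposited, against 0.24 for all genes kept, and -0.47 relative to the probe sets kept.

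Adamts4 had the lowest ratio of the 8 genes, with signals of 209.5 with siCont and 122.5 with siENG. In log2 units the difference was -0.77, and -0.98 relative to the probe sets kept, where the robust SD was 0.34. The other probe set read 57.9 and 29.8, a difference of -0.96, and -1.17 relative to the probe sets kept. In both probe sets the siENG signal was the lowest of the 3 arrays. Adamts1 was also lowest with siENG, at 1254.4 against 1686.0 with siCont, a log2 ratio of -0.43 (-0.64 relative to the probe sets kept, robust SD 0.22). Adamts5 was below vehicle with siENG too, and siENG over siCont gave log2 ratios of 0.14, -0.11 and -0.29 in its 3 brighter probe sets, and -0.07, -0.32 and -0.50 relative to the probe sets kept. In its brightest probe set the difference lay within the robust SD of 0.27.

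Mmp11 had a log2 ratio of siENG over siCont of -0.23, and -0.44 relative to the probe sets kept, with a robust SD of 0.27. Its signal with siENG and BMP-2 remained above that in vehicle. The 3 probe sets of Mmp14 read -0.28, -0.20 and -0.06 in log2 units, or -0.49, -0.41 and -0.27 relative to the probe sets kept. The brightest probe set, with 2377.9 with siCont and 1954.1 with siENG, was the one of the 3 beyond its robust SD of 0.22 as deposited. Mmp2 had -0.43 in its brighter and -0.11 in its dimmer probe set, or -0.64 and -0.32 in relative terms, with robust SDs of 0.42 and 0.49. All 6 probe sets of these 3 metalloproteinases were thus lower with siENG. As deposited, only the brightest ones of Mmp14 and Mmp2 were so by more than the robust SD, and Mmp2 barely. Probe sets of a gene share the same arrays and are not replicates.

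Timp1 was higher with siENG than with siCont, at 1919.5 against 1532.2, with a log2 ratio of 0.33 as deposited and 0.12 relative to the probe sets kept, the latter within the robust SD of 0.22. The 4 probe sets of Timp3 had log2 ratios from 0.16 to 0.22, and from -0.05 to 0.01 relative to the probe sets kept. Timp3 thus differed from the overall shift of the siENG array by less than its robust SD. Markers of other cell types also differed between these arrays. The 6 leukocyte markers summed to 126.6 with siCont and 221.0 with siENG, against 141.3 in vehicle, of which Cd68 made up 50 and 117.6. Csf1r and Lyz2 also reached 23 on an array and were higher with siENG, Adgre1 (15.1 and 10.3) and Itgam (3.3 and 1) were not, and the defining marker Ptprc was between 0.9 and 8.1, below the highest Bacillus control. The 3 mature osteoblast markers summed to 73.7 with siCont and 36.7 with siENG, against 52.3 in vehicle, but only Sp7 (56.5 and 26.3) reached 23. Ibsp (11.7 and 4.6) and Dmp1 (5.5 and 5.8) lay below the highest Bacillus control on all arrays. The 5 epithelial markers summed to 84.6 and 54.1, but only Epcam (26.9 and 11.9) reached 23 on either array. Of the others, all below 23 on both, Krt5 and Krt8 were lower and Cdh1 and Krt14 higher with siENG. PDL-L2 is 1 cell line, and whether these readings come from other cells in the cultures was not tested.

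**Figure D3:**
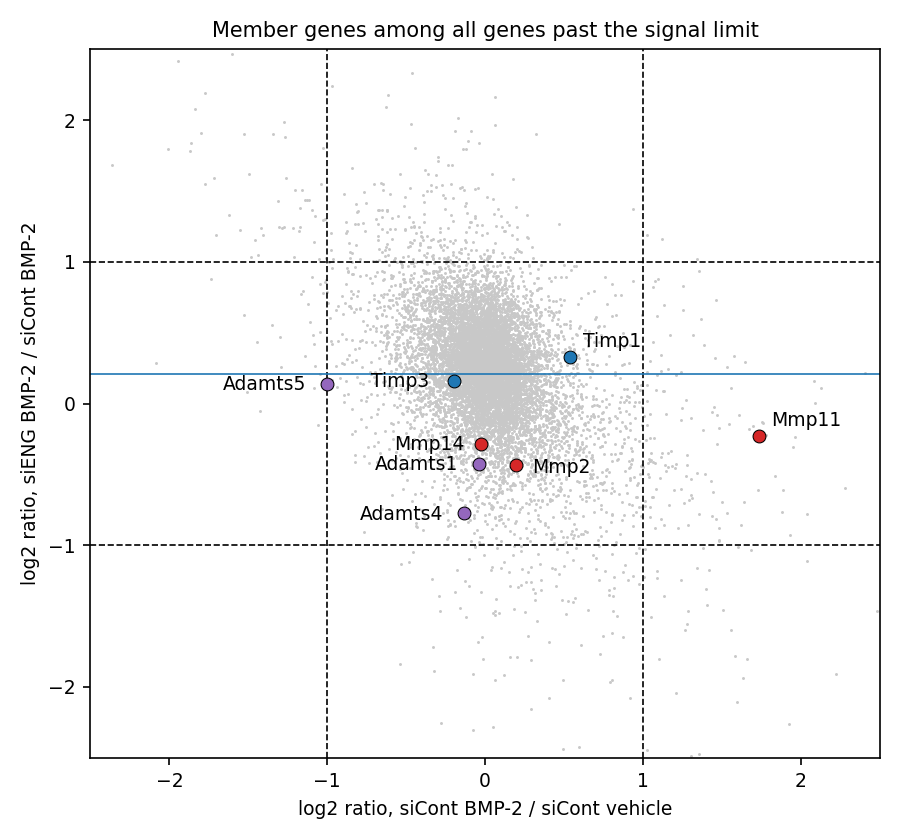
For each gene the horizontal axis gives the log2 ratio of BMP-2 to vehicle, both with siCont, and the vertical axis that of siENG to siCont, both with BMP-2, for the 8 genes kept, with ADAMTS genes in purple, metalloproteinases in red and inhibitors in blue, over all 10609 genes kept in both comparisons in grey, of which 58 lie outside the axes. Dashed lines mark ratios of 2 and 0.5 and the blue line the median of the probe sets kept on the vertical axis; Mmp11 and Adamts5 stand at opposite ends of the horizontal axis, and Adamts4 is lowest on the vertical axis at -0.77. Both axes use the siCont BMP-2 array.

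The siENG BMP-2 array was also set against siCont vehicle, a comparison that combines the knockdown with the cytokine. A ratio of 2 or more was found for 1 of 8 genes, Mmp11, against 3.99% of all 10847 genes, and a ratio of 0.5 or less for 0, against 1.73%. Relative to the probe sets kept, Mmp11 still passed the upper limit, which 2.25% of genes did, and 2 genes, Adamts4 and Adamts5, passed the lower limit, which 2.85% did. Mmp11 had a ratio of 2.83 (log2 ratio 1.28 relative to the probe sets kept, robust SD 0.30). Adamts5 had log2 ratios of -0.87, -0.78 and -1.03 in its 3 brighter probe sets, and relative to the probe sets kept the ratios were 0.471, 0.5004 and 0.420. Adamts4 had -0.91 in its brighter probe set and -0.63 in the other, or -1.13 and -0.85 in relative terms, where the robust SDs were 0.35 and 0.48. Timp1 had a ratio of 1.82 and a log2 ratio of 0.86, or 0.64 relative to the probe sets kept. The siENG array with BMP-2 thus placed Mmp11 and Timp1 above vehicle, Adamts4, Adamts5 and Adamts1 (log2 ratio -0.47) below it, and Timp3 within 0.11 of it in log2 units in each probe set, all as deposited. Relative to the probe sets kept, Timp3 ranged from -0.26 to -0.11, beyond the robust SD (0.22) only in its brightest probe set. Mmp14 had -0.31 (relative -0.53, robust SD 0.22) in its brightest probe set and 0.04 (relative -0.18) in its dimmest.

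Other genes of matrix proteolysis were counted from 9 lists, which held 95 genes, 84 of them matched on the array. In BMP-2 over vehicle 42 of these were kept, of which 3 had a ratio of 2 or more, against 1.8% of all genes kept, and 0 had 0.5 or less, against 1.57%. Of the 3, Mmp24 and Adamtsl2 passed the signal limit only through the arrays with BMP-2, so their ratios are over a reading near background. In siENG over siCont with BMP-2 40 were kept and 0 passed either limit, against 4.04% of all genes at 2 or more and 1.66% at 0.5 or less. Among 13 other matrix metalloproteinases on the array 3 were kept. Mmp24, a membrane-type enzyme, had signals of 8.4, 26.3 and 32.3 on the arrays in the order vehicle, BMP-2 and siENG BMP-2, the first of which lies in the range of the Bacillus controls, and its other probe sets were below 23 on all arrays. Mmp16 had 53.6, 62.6 and 84.2, and Mmp19 100.5, 85.9 and 66.1 in its brighter probe set and 71.4, 43.9 and 67.2 in the other. Mmp12 and Mmp1b, which lie between Mmp13 and Mmp3 on chromosome 9, were not kept, with signals up to 9.6.

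Of 18 other ADAMTS and ADAMTS-like genes matched, 9 were kept, with a median log2 ratio of 0.20 for BMP-2 over vehicle and 1 at a ratio of 2 or more. This was Adamtsl2, a fibrillin-binding protein without protease activity, which read 13.8, 51.0 and 33.4 in the same order. The vehicle reading is next to the highest Bacillus control, so no size is given for the difference. As Adamtsl2 was kept only through the arrays with BMP-2, counting it raises the median of the list, from which no trend is read. Adamtsl3, a related matrix protein, had 255.3, 415.0 and 423.3, which made BMP-2 over vehicle 0.70 and siENG over siCont 0.03 (relative -0.18) in log2 units. Adamts10, which is linked to fibrillin microfibrils, had 134.8, 87.7 and 128.6, with a log2 ratio of -0.62, while its dimmer probe set had 0.04. Adamts16, another secreted protease, had 32.7, 28.9 and 19.9 in its brighter probe set and 12.3, 25.9 and 14 in the other.

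The ADAM genes, membrane-anchored proteases and adhesion proteins, had a median log2 ratio of 0.37 over 9 genes kept. Of these, 7 were higher with BMP-2 and 2 lower, and the share of all genes that were higher was not counted. Adam8 reached 23 only on the arrays with BMP-2, and Adam33 only on the vehicle array. Adam33, an asthma-associated protease, was the farthest below vehicle of the 9. It read 35.2, 20.1 and 18.3, with BMP-2 over vehicle at -0.81 in log2 units, where the robust SD was 0.51. Adam19, a meltrin that is needed for heart development, read 42.6, 104.1 and 64.9, so that BMP-2 over vehicle was 1.29 and siENG over siCont -0.68 (relative -0.89) in log2 units. Its second probe set had 28, 28.6 and 11.4, so the increase with BMP-2 was seen in the brighter one only. Adam12, another meltrin, had 108.7, 216.2 and 212.9, a log2 ratio of 0.99, and 52.7, 83.7 and 91 in its second probe set, a log2 ratio of 0.67. Adam8 had 21.1, 33.4 and 23.2, and Adam17, the TNF-α converting enzyme, had 505.2, 652.8 and 591.8. In both probe sets of Adam12 the 2 BMP-2 arrays were above vehicle and close to each other.

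Among the genes that process procollagen, 4 of 5 were kept, with a median log2 ratio of 0.27 for BMP-2 over vehicle and of -0.29 (relative -0.50) for siENG over siCont. Pcolce2, an enhancer of procollagen C-proteinase, gave 861.8 in vehicle cells, 1432.9 after BMP-2 and 872.8 after siENG plus BMP-2. BMP-2 over vehicle gave a log2 ratio of 0.73 with a robust SD of 0.11, and siENG over siCont -0.72 as deposited and -0.93 relative to the probe sets kept. As deposited, the siENG signal thus lay close to that in vehicle. Bmp1, the procollagen C-proteinase itself, had 650.2, 737.0 and 495.5 in its brightest probe set, of which siENG over siCont was -0.57 (relative -0.78) in log2 units, and 219.9, 238.4 and 208.1 in the next. Pcolce, the other enhancer, had 6234.5, 5527.9 and 6019.3, and Tll1, a related proteinase, 21.4, 27.3 and 27.1.

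Among inhibitors and activators outside the 10 genes, 0 of those kept passed a limit in either comparison. Timp2, which with Mmp14 forms the complex that activates proMMP-2, had signals of 2320.2, 2291.6 and 3046.1 in its brightest probe set, so that BMP-2 over vehicle was -0.02 and siENG over siCont 0.41 (relative 0.20, within the robust SD of 0.22) in log2 units. In its 4 other probe sets past the limit the latter ranged from -0.21 to -0.11, so its direction with siENG depended on the probe set. Timp4 had 24.8, 14.1 and 21.3, the cathepsin inhibitor Cst3 3819.6, 3129.2 and 4000.7, and Reck, a membrane-anchored inhibitor, 193.6, 181.1 and 157.8. Of 5 genes of activation and clearance kept, 4 were higher with siENG than with siCont as deposited and 1 was lower. Their median log2 ratio was 0.15, below the 0.24 of all genes kept, and -0.06 relative to the probe sets kept. In relative terms Lrp1 (-0.11) and Mrc2 (-0.06) were lower as well. Pcsk7, a proprotein convertase, had 191.4, 151.3 and 243.9, so that siENG over siCont was 0.69 (relative 0.48) in log2 units, and Bsg, an inducer of metalloproteinases, 3291.5, 3193.6 and 4725.4, or 0.57 (relative 0.36). Mrc2, a collagen uptake receptor, had 207.3, 216.2 and 240.5. Furin, which activates Mmp11 and Mmp14, was the one lower as deposited, with 212.1, 198.7 and 131.9, or -0.59 (relative -0.80). The 3 plasminogen genes kept were the tissue activator Plat with 226.0, 164.9 and 193.7, the receptor Plgrkt with 632.7, 594.1 and 892.5, and the receptor Plaur with 129.1, 121.8 and 119.4. Cathepsins, lysosomal proteases, had a median log2 ratio of -0.05 for BMP-2 over 4 genes kept, and Ctsz had 0.57 (relative 0.36) for siENG over siCont. Ctsb had 2358.9, 2134.8 and 2503.9, Ctsd 1351.0, 1601.3 and 1525.9, and Ctsl 4748.1, 4819.4 and 5640.4. Of 8 aggrecanase substrates and partners 1 was kept, Hapln3, with signals of 31.2, 25.1 and 23.9, while the proteoglycans Acan and Vcan were at most 15.1 and 11.5 in every probe set.

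**Figure D4:**
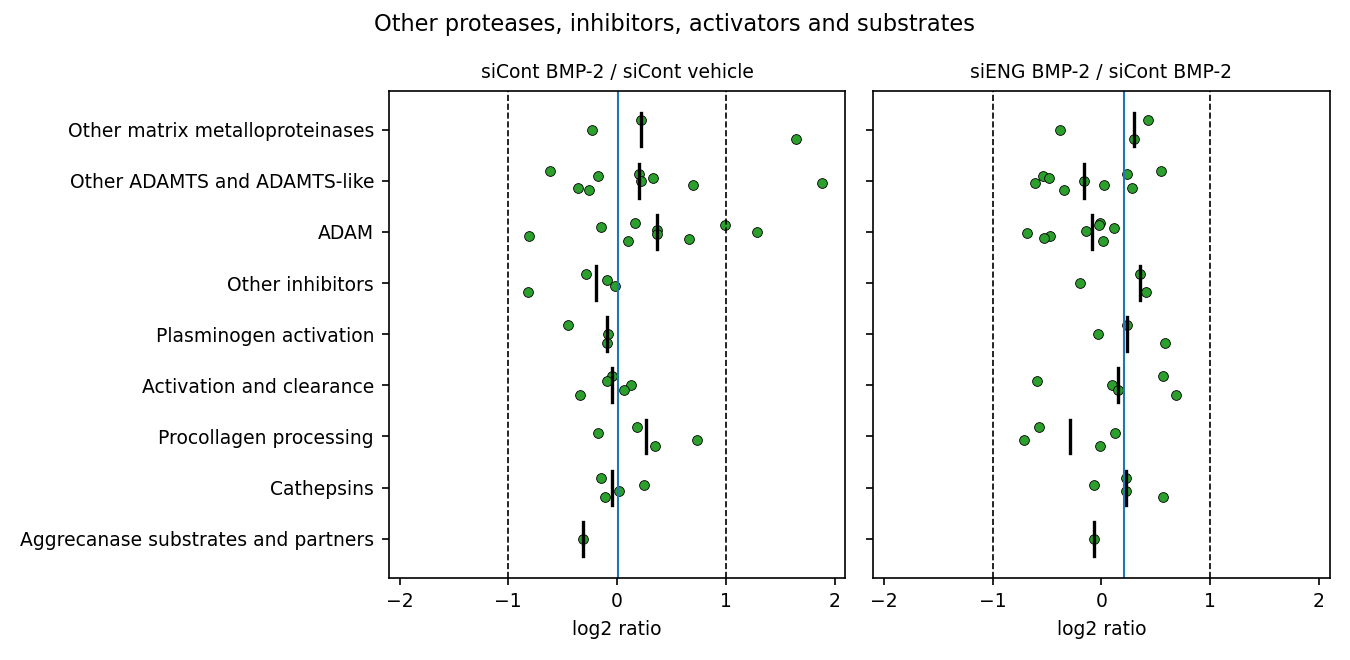
Log2 ratios of the genes kept from 9 further lists, for siCont BMP-2 over siCont vehicle (left) and siENG BMP-2 over siCont BMP-2 (right), with 1 point per gene, offset vertically for legibility, and a black bar at the median of each list. Dashed lines mark ratios of 2 and 0.5 and the blue line the median of all probe sets kept. The medians on the left count Mmp24, Adamtsl2, Adam8 and Tll1, which reached 23 only with BMP-2. They also count Adam33 and Timp4, which reached it only with vehicle. On the left 3 genes lie beyond a ratio of 2, of which Mmp24 and Adamtsl2 have vehicle readings of 8.4 and 13.8, near background, and Adam19 one of 42.6, and on the right none of the 40 genes lies beyond either dashed line.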

How the data were processed

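Total RNA from 3 conditions of PDL-L2 cells was hybridised to 3 Affymetrix arrays, and samples were grouped by their titles. The authors deposited a linear signal intensity per probe set; the submitters' processing notes name GCOS 1.4, while its settings (signal algorithm, background, scaling) were not given in the sources used here. Signals of 0, listed for 3 probe sets in vehicle and for 1 with siCont and BMP-2, were set to 0.1 before log2 was taken. Control probe sets (64) were left out.

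Symbols came from the platform annotation, looked up by gene identifier in RefSeq (GRCm38.p6). Of the probe sets, 34958 had a single symbol, 932 had several and 9211 had none. The probe set with the highest mean log2 signal stood for its gene. The robust SD is 1.4826 times the median absolute deviation of log2 ratios in 20 bins of mean log2 signal over all probe sets that are not controls. The number of arrays limits the precision. No test was made. The members, wider lists and markers were chosen with earlier results of these data known. Genes named beside the members were the 4 kept genes of a list (all where fewer were kept) with the highest absolute log2 ratio in either BMP-2 over vehicle or siENG over siCont. Adam17, Acan, Vcan, Mmp12 and Mmp1b were named after their values were seen, and Lrp1 is also named outside this rule. Ratio calculations were tested on simulated data.

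Alternatives dropped the signal limit, raised it to the 75th percentile, or used signals floored at the median, quantile normalization, median, lowess (fraction 0.3) and 2% trimmed mean centring, the probe sets of a gene averaged, taken singly, or counted if any passed. Averaging only probe sets that reached the limit was added after seeing the data. Versions were matplotlib 3.10.9, statsmodels 0.14.6, scipy 1.17.1, pandas 2.3.3 and numpy 2.4.6 under Python 3.11.15.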

Additional observations from a re-analysis of the deposited data

How the results depend on the processing

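Over the values of the 10 genes in the 3 comparisons, 197 of the alternative log2 ratios moved by less than the robust SD and 37 by more, and 0 of those past a limit changed sign. Part of the 197 could not move. Flooring at the median left every gene but Mmp3 and Mmp13 unchanged, and averaging left genes with 1 probe set unchanged. Mmp3 and Mmp13 are counted too, at background signals with robust SDs from 0.86 to 2.51. The 197 therefore overstate how stable the ratios were. Mmp11 kept a ratio of 2 or more over vehicle under every alternative run, with log2 ratios from 1.69 to 1.73 for BMP-2 and of at least 1.25 for siENG BMP-2. Values between the limits did change sign with the probe set or centring for Adamts4, Adamts5, Mmp2, Mmp14 and Timp3, and those of Mmp3, at background, did so with centring. For BMP-2 over vehicle, the count of genes at 0.5 or less was 2 without the signal limit, where Mmp13 was added at background signals. It was 0 when only probe sets that reached the limit were averaged, an alternative chosen after seeing the data, since Adamts5 then had a log2 ratio of -0.80. It was 1 when all probe sets were averaged, where Adamts5 had -1.32 with its background probe set (-2.88) included, so its call rests on the brightest probe set. For siENG over siCont with BMP-2, the count at 2 or more became 1 without the limit, again Mmp13. For siENG BMP-2 over vehicle, the count at 0.5 or less became 1 without the limit and 1 when any probe set was allowed, and it became 2 under quantile normalization, 2 under median centring, 2 under 2% trimmed mean scaling and 2 under lowess centring, each against 0 as deposited. It therefore depends on how the brightness of the siENG array is treated. No paired analysis was possible because each condition has 1 array. Signals near or below 13.1 give no order between arrays.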
